A study of Mus musculus with 10 samples.

Results

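The genes described here encode enzymes of de novo purine and pyrimidine synthesis, deoxynucleotide synthesis, and nucleotide salvage and interconversion. The 35 members were named by symbol and found among the 55573 identifiers of the normalized expression table, and all 35 had a row. RNA-Seq was performed on bone marrow–derived macrophages (BMDMs), which are macrophages grown from mouse bone marrow with the growth factor MCSF, with 5 groups of 2 libraries and 10 libraries in all. Every group was genotype WT, came from female C57BL/6 mice, and was treated for 4 hours, and the labels gave no age for the mice. The first group received vehicle. The polyU group received 5 µg of poly-uridine single-stranded RNA, a ligand of the RNA sensor TLR7, carried by the cationic lipid DOTAP. The paper describes guanine nucleosides as ligands of a separate site of TLR7. The PNPi+dG/rG group received ulodesine, an inhibitor of purine nucleoside phosphorylase (PNP), at 1 µM together with deoxyguanosine (dG) and guanosine (rG), each at 5 µM. The PNPi+dG/rG+polyU group received all of these, and the R848 group received R848, a small-molecule TLR7 agonist, at 1 ng/mL. Whether the vehicle contained DOTAP was not stated in the labels. DOTAP is named for both groups with polyU and not for R848. Where these groups are compared with R848, a part of DOTAP cannot be told apart. Levels are in CPM, the reads of a gene divided by its library's reads on genes and put on a common scale, and the libraries held an estimated 14128128 to 38392592 reads on genes, so that 1 read was worth between 0.026 and 0.0708 CPM.

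Cells build purine rings stepwise on phosphoribosyl pyrophosphate (PRPP) to reach IMP, from which AMP and GMP are made, whereas the pyrimidine ring is assembled before it is joined to PRPP to give UMP. Ribonucleotide reductase and the thymidylate enzymes turn ribonucleotides into DNA precursors and are known for their link to S phase. Salvage enzymes recover bases and nucleosides, and BMDMs kept in MCSF are known to cycle.

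Of the 35 enzymes, 33 passed a filter of at least 1 CPM in at least 2 libraries and were tested among 11978 genes, and each of the 33 reached 1 CPM in at least 2 libraries outside the PNPi+dG/rG+polyU and R848 groups. A gene was called when its Benjamini-Hochberg adjusted p over all tested genes was under 0.05. Both labels of a group name biological replicates, but nothing said that they came from separate cultures or animals, so the p-values measure the spread between these samples. Because the samples were bulk RNA, fewer cells of a kind and less RNA per cell cannot be told apart.

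Of the 4 treated groups, the R848 group differed from vehicle in the most members. The R848 libraries also held fibroblast markers, summing to 138.1 and 147.4 CPM against 0.561 and 1.18 in vehicle. Whether the groups came from the same culture was not stated, so a response to R848 and a difference between cultures cannot be told apart. Against vehicle, 3 measured members rose and 29 fell, beside 19.2% of all tested genes that rose and 62.9% that fell. At least 2-fold changes numbered 2 members higher and 22 lower, beside 8.89% and 30.3% of tested genes. The median log2 fold change of the measured members was -1.35, and that of all tested genes was -0.50. With every library centred on its own median, 4 members rose and 27 fell, 3 and 15 of them at least 2-fold. Among all tested genes 5146 rose and 4150 fell by any amount. The share of all tested genes at least 2-fold changed was not counted after centring, here or below. The 2-fold counts of members after centring therefore have no background to be set against.

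PNPi+dG/rG+polyU changed fewer members than R848, and most of them were higher than in R848. Against vehicle, 4 members rose and 24 fell, beside 22.2% and 46.7% of tested genes, and at least 2-fold changes numbered 3 members higher and 7 lower, beside 8.12% and 14.3%. The members' median was -0.60 and that of all tested genes was -0.22. After centring, 4 members rose and 21 fell, while 3979 tested genes rose and 3973 fell. Compared directly with R848, PNPi+dG/rG+polyU was higher for 29 members and lower for 1, beside 53.9% and 16.9% of tested genes, with 14 members at least 2-fold higher and 1 lower, beside 16.9% and 3.86%. Centring changed these counts to 20 members higher and 6 lower, with 3397 tested genes higher and 4486 lower by any amount. Of these members, 9 and 1 were at least 2-fold changed, without a 2-fold share of all tested genes after centring beside them.

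PolyU alone gave small changes, with 5 members higher and 7 lower, beside 20.6% and 18.7% of tested genes. A single member, Nt5c3, rose at least 2-fold, as did 3.21% of tested genes, and this count was 0 without vehicle replicate 2, without polyU replicate 2, after centring, and with a pseudocount of 1. The members' median was -0.00 and that of all tested genes was 0.02. These counts rested on individual libraries: without vehicle replicate 1 they were 2 higher and 3 lower, without vehicle replicate 2 there were 3 higher, without polyU replicate 1 there were 2 higher, and without polyU replicate 2 there were 2 lower. Centring gave 4 higher and 9 lower, with 2063 tested genes higher and 2732 lower.

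PNPi+dG/rG alone gave no called member by limma, and 0 members had an unadjusted p under 0.05, against 1076 of all tested genes. Among all tested genes 0.409% rose and 0.392% fell, and centring gave 0 members and 36 tested genes higher and 96 lower. The member with the largest estimate was Ada, at 0.33 ± 0.20 (SE, adjusted p = 0.678), with a 95% confidence interval of -0.09 to 0.75.

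When polyU was present, PNPi+dG/rG was followed by lower levels of most members. PNPi+dG/rG+polyU against polyU gave 3 members higher and 27 lower, beside 15.8% and 47.5% of tested genes, and 2 higher and 4 lower at least 2-fold, beside 5.29% and 10.2%. The latter count was 2 without polyU replicate 1, 7 without polyU replicate 2, 2 with a pseudocount of 1, and 2 after centring, where 3 were higher. Here the median of the members was -0.55 and that of all tested genes was -0.24. Centring gave 4 higher and 20 lower, with 3604 tested genes higher and 3035 lower. The interaction, which is the log2 change after adding PNPi+dG/rG to polyU minus the change after adding it to vehicle, was called higher for 3 members and lower for 25, beside 11.8% and 38.9% of tested genes. At least 2-fold interactions numbered 2 higher and 4 lower, beside 4.55% and 8.87%. They numbered 2 lower without polyU replicate 1 and 6 lower without polyU replicate 2, 3 higher without vehicle replicate 2, and 3 higher and 1 lower after centring. The median interaction was -0.61 for the members and -0.27 for all tested genes. After centring, 3 members were higher and 16 lower, with 2888 tested genes higher and 2037 lower.

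**Figure D1:**
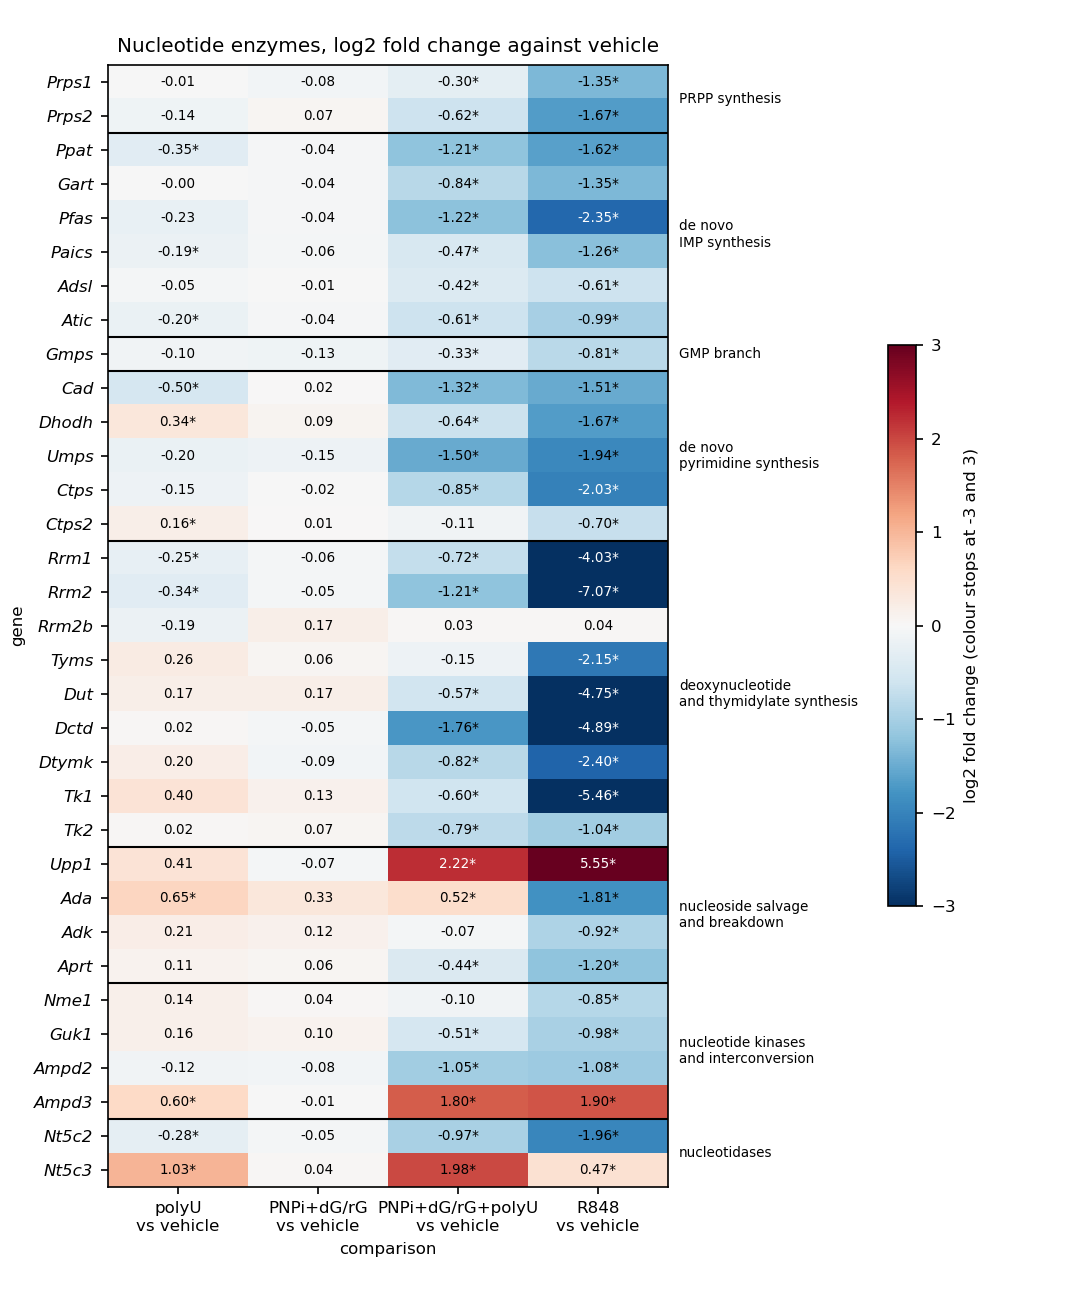
Log2 fold change of the 33 measured enzymes against vehicle (columns, 4 treatments; rows, genes grouped by role), with an asterisk at an adjusted p under 0.05. The R848 column holds 29 called decreases, beside 62.9% of all tested genes. The PNPi+dG/rG column holds 0 calls, beside 0.409% of tested genes higher and 0.392% lower.

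The PRPP synthetases Prps1 and Prps2 make the activated ribose that both pathways use. Prps1 was at 20.6 and 22.1 CPM in vehicle, 23.0 and 19.5 in polyU, 19.2 and 21.4 in PNPi+dG/rG, 17.1 and 17.5 in PNPi+dG/rG+polyU, and 7.28 and 9.61 in R848. Prps2 was at 45.8 and 41.8 CPM in vehicle, 42.0 and 37.8 in polyU, 45.4 and 46.4 in PNPi+dG/rG, 27.3 and 29.8 in PNPi+dG/rG+polyU, and 13.0 and 14.6 in R848. For both genes the R848 libraries were the lowest, and those with PNPi+dG/rG+polyU lay between them and the other groups. Prps2 changed by -1.67 ± 0.09 (SE, adjusted p = 3.44e-11) with R848 and -0.62 ± 0.09 (SE, adjusted p = 9.5e-06) with PNPi+dG/rG+polyU on the log2 scale. Prps1 changed by -1.35 ± 0.13 (SE, adjusted p = 6.24e-08) with R848. Its call with PNPi+dG/rG+polyU, -0.30 ± 0.13 (SE, adjusted p = 0.0439), was lost after centring (-0.09, adjusted p = 0.526) and without any 1 of the vehicle, PNPi+dG/rG or PNPi+dG/rG+polyU libraries (adjusted p between 0.0511 and 0.177). Per kb of exon, the paralogues stood near each other in vehicle, at 10.7 CPM per kb for Prps1 and 11.3 for Prps2. Of 50-base stretches in Prps1 transcripts, 9.93% also lie in Prps1l3, so its level is uncertain.

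All 6 enzymes that lead from PRPP to IMP fell after either PNPi+dG/rG+polyU or R848, beside 46.7% and 62.9% of all tested genes. Ppat, the amidotransferase of the first committed step, was at 39.9 and 36.3 CPM in vehicle, 32.7 and 27.2 in polyU, 36.0 and 37.9 in PNPi+dG/rG, 17.2 and 15.7 in PNPi+dG/rG+polyU, and 12.9 and 11.9 in R848. Its PNPi+dG/rG+polyU and R848 libraries were low and did not overlap the other groups or each other, though after centring the former was 0.02 above the latter (adjusted p = 0.838). Ppat changed by -1.21 ± 0.10 (SE, adjusted p = 2.1e-08) with PNPi+dG/rG+polyU and -1.62 ± 0.10 (SE, adjusted p = 3.06e-10) with R848. With polyU it changed by -0.35 ± 0.10 (SE, adjusted p = 0.0101), a call lost without vehicle replicate 1 (adjusted p = 0.0973) or polyU replicate 2 (adjusted p = 0.149).

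Gart carries 3 activities of the purine ring assembly in a single protein, and it was at 109 and 104 CPM in vehicle, 113 and 99.6 in polyU, 102 and 105 in PNPi+dG/rG, 59.0 and 60.1 in PNPi+dG/rG+polyU, and 40.9 and 42.7 in R848. Pfas, which makes formylglycinamidine ribonucleotide, was at 71.2 and 72.8 CPM in vehicle, 69.8 and 54.3 in polyU, 69.9 and 70.2 in PNPi+dG/rG, 32.1 and 29.6 in PNPi+dG/rG+polyU, and 13.2 and 15.0 in R848. Paics, which adds the carboxyl group and aspartate, was at 158 and 152 CPM in vehicle, 139.7 and 133 in polyU, 148 and 151 in PNPi+dG/rG, 111 and 112 in PNPi+dG/rG+polyU, and 64.6 and 64.5 in R848. In each case the R848 libraries were lowest, the PNPi+dG/rG+polyU libraries were next, and neither group overlapped vehicle. After centring, Gart in PNPi+dG/rG+polyU was 0.13 above R848 (adjusted p = 0.0663). Pfas had the largest decrease of these enzymes with R848, -2.35 ± 0.10 (SE, adjusted p = 2.58e-11), and fell by 1.22 on the log2 scale with PNPi+dG/rG+polyU. Gart changed by -1.35 ± 0.06 (SE, adjusted p = 9.8e-12) and Paics by -1.26 ± 0.05 (SE, adjusted p = 7.41e-13) with R848. Adsl, which splits off fumarate, and Atic, which closes the ring, ranged from 36.0 to 57.3 CPM and from 64.1 to 131 CPM. With R848 they changed by -0.61 and -0.99, and the change of Adsl was -0.02 (adjusted p = 0.79) after centring. Ppat and Paics face away from each other on chromosome 5, on opposite strands, and their gene models overlap by 272 bases at the 5′ ends. Whether the counting used strand was not stated. Of the 50-base stretches of Gart, 15.5% also lie in Gm15964.

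Gmps, the GMP synthetase that aminates XMP, was at 59.5 and 59.8 CPM in vehicle, 57.7 and 53.6 in polyU, 54.7 and 54.5 in PNPi+dG/rG, 46.6 and 48.4 in PNPi+dG/rG+polyU, and 34.1 and 34.0 in R848. Its R848 libraries were the lowest and its changes were small, at -0.33 ± 0.06 (SE, adjusted p = 0.000174) with PNPi+dG/rG+polyU and -0.81 ± 0.06 (SE, adjusted p = 4.29e-09) with R848. The former was -0.12 (adjusted p = 0.0878) after centring, and PNPi+dG/rG+polyU was then 0.10 above R848 (adjusted p = 0.158).

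Pyrimidine synthesis begins with Cad, a protein that joins carbamoyl phosphate synthetase, aspartate transcarbamylase and dihydroorotase. Cad was at 101 and 101 CPM in vehicle, 75.6 and 66.8 in polyU, 101 and 103 in PNPi+dG/rG, 42.1 and 38.8 in PNPi+dG/rG+polyU, and 35.2 and 35.4 in R848. Its polyU libraries lay below vehicle, and its PNPi+dG/rG+polyU and R848 libraries lay lower still. Cad changed by -0.50 ± 0.07 (SE, adjusted p = 1.86e-05) with polyU, -1.32 ± 0.07 (SE, adjusted p = 4.37e-11) with PNPi+dG/rG+polyU and -1.51 ± 0.07 (SE, adjusted p = 3.89e-12) with R848. PNPi+dG/rG+polyU was 0.20 above R848, but -0.19 after centring, so the order of these groups depended on the scaling.

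Umps, which forms UMP from orotate, was at 46.7 and 53.8 CPM in vehicle, 45.9 and 41.3 in polyU, 45.5 and 44.9 in PNPi+dG/rG, 16.6 and 18.9 in PNPi+dG/rG+polyU, and 12.5 and 13.7 in R848. Dhodh, the mitochondrial dihydroorotate dehydrogenase, was at 14.6 and 14.5 CPM in vehicle, 20.2 and 16.9 in polyU, 15.5 and 15.4 in PNPi+dG/rG, 8.99 and 9.71 in PNPi+dG/rG+polyU, and 4.41 and 4.75 in R848. Both were low in PNPi+dG/rG+polyU and lower in R848, with no overlap with vehicle. After centring, Umps in PNPi+dG/rG+polyU was 0.05 above R848 (adjusted p = 0.625). Umps changed by -1.50 ± 0.09 (SE, adjusted p = 6.59e-10) and -1.94 ± 0.09 (SE, adjusted p = 1.38e-11) in the order of those treatments. Dhodh changed by -0.64 ± 0.12 (SE, adjusted p = 0.000165) and -1.67 ± 0.12 (SE, adjusted p = 1.85e-09), and with polyU alone by 0.34 ± 0.12 (SE, adjusted p = 0.0287), a call lost without either vehicle library or polyU replicate 1 (adjusted p between 0.0894 and 0.236). Their interactions were -1.15 ± 0.13 (SE, adjusted p = 3.35e-06) for Umps and -1.07 ± 0.17 (SE, adjusted p = 7.3e-05) for Dhodh. Ctps, a CTP synthase that aminates UTP, was at 31.9 and 32.8 CPM in vehicle, 33.4 and 25.3 in polyU, 32.1 and 31.8 in PNPi+dG/rG, 19.9 and 16.1 in PNPi+dG/rG+polyU, and 8.07 and 7.78 in R848. Its R848 libraries were lowest, and its change with R848 was -2.03 ± 0.12 (SE, adjusted p = 5.34e-10). Its paralogue Ctps2 ranged from 31.1 to 57.7 CPM and changed by -0.70 with R848, which was -0.10 (adjusted p = 0.119) after centring. Per kb of exon, Ctps stood at 0.908 of Ctps2 in vehicle and at 0.361 of it in R848, as the mean ratio of the 2 libraries.

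The enzymes of deoxynucleotide and thymidylate synthesis gave the largest decreases with R848, with 8 of 9 at least 2-fold lower, beside 30.3% of all tested genes, and a median log2 fold change of -4.03. Rrm1, the large subunit of ribonucleotide reductase, was at 252 and 221 CPM in vehicle, 214 and 184 in polyU, 212 and 240.4 in PNPi+dG/rG, 142 and 144 in PNPi+dG/rG+polyU, and 14.3 and 14.6 in R848. Rrm2, its cell cycle–linked small subunit, was at 124 and 114 CPM in vehicle, 105 and 83.0 in polyU, 109 and 119.8 in PNPi+dG/rG, 52.6 and 49.7 in PNPi+dG/rG+polyU, and 0.850 and 0.919 in R848. The R848 libraries lay far below every other library, and those with PNPi+dG/rG+polyU lay between. In R848 the 2 Rrm2 values rested on 16 and 30 reads, as estimated from the step of 1 read. Rrm2 changed by -7.07 ± 0.10 (SE, adjusted p = 2.45e-17) with R848, a 134-fold decrease, and by -1.21 ± 0.10 (SE, adjusted p = 3.7e-08) with PNPi+dG/rG+polyU. Rrm1 changed by -4.03 ± 0.08 (SE, adjusted p = 3.91e-14) and -0.72 ± 0.08 (SE, adjusted p = 4.15e-06) in the same order. Centring moves all genes of a library alike, and it took the members' median change with R848 from -1.35 to -0.76. Both decreases with R848 were therefore smaller after centring.

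Rrm2b, the small subunit used outside S phase, ranged from 12.4 to 17.8 CPM. No Rrm2b change was called in any of the 7 comparisons: with R848 it was 0.04 ± 0.11 (SE, adjusted p = 0.705), with a 95% confidence interval of -0.18 to 0.27. After centring it was 0.64 (adjusted p = 4.88e-05), and PNPi+dG/rG+polyU was then 0.47 against polyU (adjusted p = 0.00139) and -0.40 against R848 (adjusted p = 0.0037). Per kb of exon, Rrm2 stood at 26.9 times Rrm2b in vehicle, 11.4 times in PNPi+dG/rG+polyU, and 0.194 times in R848. Of the 50-base stretches of Rrm2b, 10.7% lie in other genes.

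Tk1, the cytosolic thymidine kinase, was at 40.6 and 39.1 CPM in vehicle, 58.5 and 47.6 in polyU, 41.4 and 46.2 in PNPi+dG/rG, 27.4 and 25.2 in PNPi+dG/rG+polyU, and 0.743 and 1.10 in R848. Dut, the dUTPase that yields dUMP, was at 30.5 and 26.4 CPM in vehicle, 35.4 and 28.9 in polyU, 31.5 and 32.3 in PNPi+dG/rG, 18.3 and 19.8 in PNPi+dG/rG+polyU, and 1.06 and 1.04 in R848. Dctd, the dCMP deaminase that also yields dUMP, was at 8.42 and 7.14 CPM in vehicle, 8.98 and 6.92 in polyU, 7.08 and 7.94 in PNPi+dG/rG, 2.34 and 2.25 in PNPi+dG/rG+polyU, and 0.372 and 0.184 in R848. The R848 libraries held the lowest values of all 3 enzymes, on 14 and 36 reads for Tk1, 20 and 34 for Dut, and 7 and 6 for Dctd. With R848, Tk1 changed by -5.46 ± 0.16 (SE, adjusted p = 6.39e-12), Dut by -4.75 ± 0.12 (SE, adjusted p = 3.26e-15), and Dctd by -4.89 ± 0.28 (SE, adjusted p = 1.43e-10). With PNPi+dG/rG+polyU, Dctd changed by -1.76 ± 0.28 (SE, adjusted p = 4.22e-05), Tk1 by -0.60 ± 0.16 (SE, adjusted p = 0.00529) and Dut by -0.57 ± 0.12 (SE, adjusted p = 0.000408).

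Tyms, the thymidylate synthase, was at 21.6 and 20.5 CPM in vehicle, 27.5 and 23.0 in polyU, 20.5 and 23.6 in PNPi+dG/rG, 18.5 and 19.3 in PNPi+dG/rG+polyU, and 4.78 and 4.68 in R848. Dtymk, which phosphorylates dTMP, was at 30.8 and 30.2 CPM in vehicle, 35.7 and 34.1 in polyU, 28.9 and 28.5 in PNPi+dG/rG, 16.1 and 18.4 in PNPi+dG/rG+polyU, and 6.85 and 4.84 in R848. Tk2, the mitochondrial thymidine kinase, was at 24.1 and 26.0 CPM in vehicle, 25.0 and 25.9 in polyU, 26.5 and 25.9 in PNPi+dG/rG, 14.4 and 14.6 in PNPi+dG/rG+polyU, and 11.4 and 13.0 in R848. All 3 were lowest in R848 and next lowest in PNPi+dG/rG+polyU, and neither group overlapped vehicle. For Tk2, PNPi+dG/rG+polyU stood 0.25 ± 0.09 (SE, adjusted p = 0.023) above R848, which turned to -0.13 (adjusted p = 0.204) after centring and lost its call without either PNPi+dG/rG+polyU library, without R848 replicate 1, without the filter, or with these groups fitted alone (adjusted p between 0.0527 and 0.22). Tyms changed by -2.15 ± 0.11 (SE, adjusted p = 2.84e-11) with R848, and its PNPi+dG/rG+polyU estimate was -0.15 ± 0.11 (SE, adjusted p = 0.225). Dtymk changed by -2.40 ± 0.13 (SE, adjusted p = 1.86e-10) and -0.82 ± 0.13 (SE, adjusted p = 4.99e-05), and Tk2 by -1.04 ± 0.09 (SE, adjusted p = 3.08e-08) and -0.79 ± 0.09 (SE, adjusted p = 1.36e-06), in the same order. Per kb of exon, Tk1 stood at 1.10 times Tk2 in vehicle and at 0.0516 times Tk2 in R848.

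**Figure D2:**
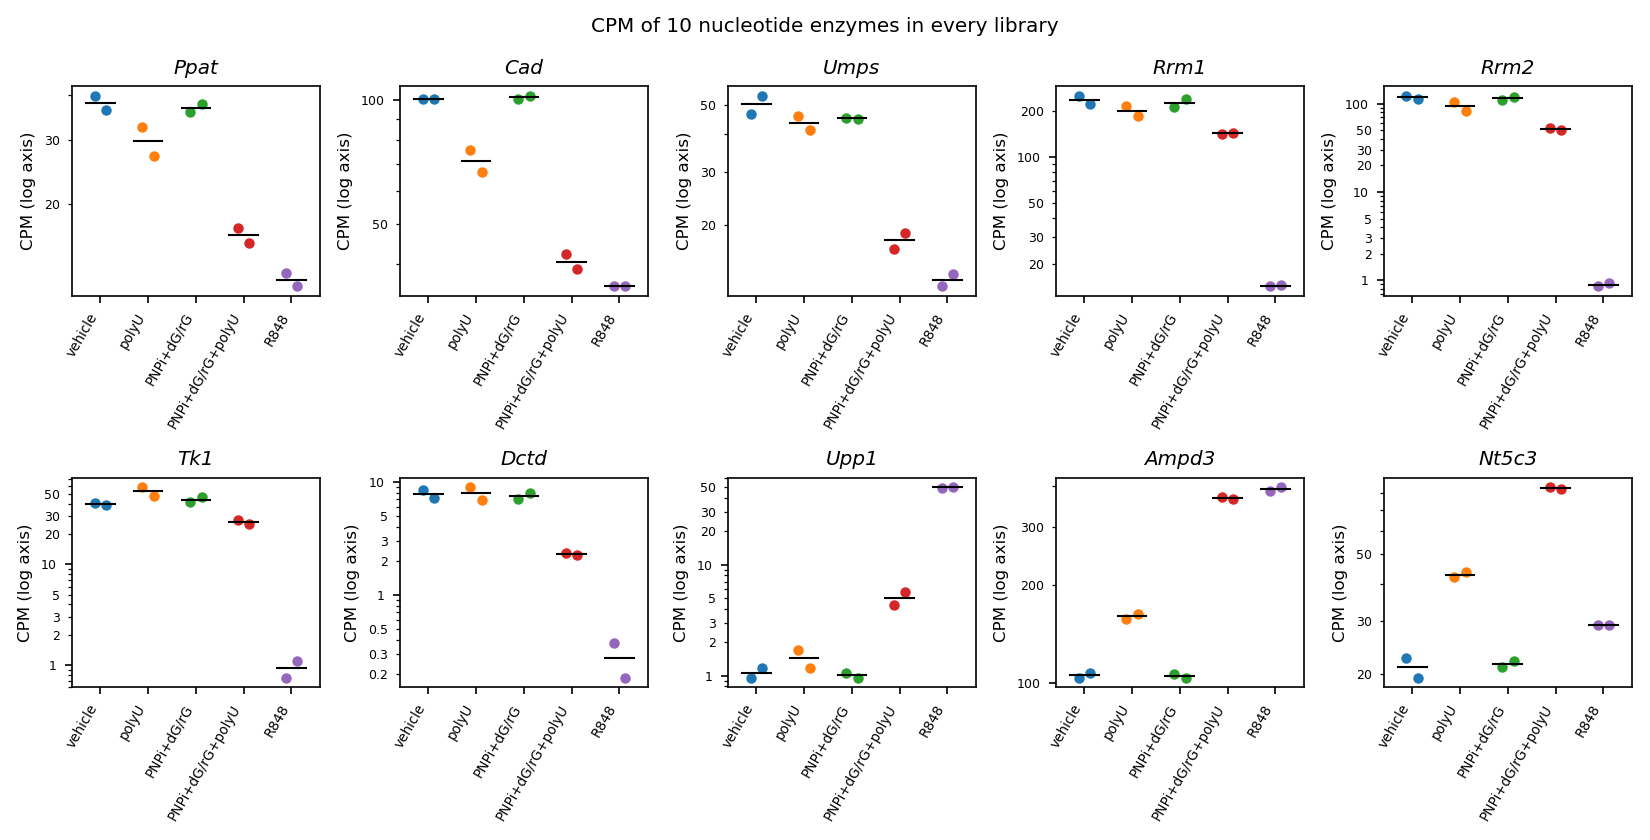
CPM of 10 enzymes in each library (log axes; points, 2 libraries in each of 5 groups; bars, their mean). Rrm2 falls to 0.85 and 0.919 CPM in R848, and Upp1 rises to 49.4 and 50.2 CPM.

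Other measured genes moved with these decreases in the same libraries. All 22 of 22 listed proliferation genes fell with R848, beside 62.9% of all tested genes, with a median of -4.00. With PNPi+dG/rG+polyU 21 of 22 fell, beside 46.7%, with a median of -0.76. Their summed level was 3498 and 3167 CPM in vehicle, 1847 and 1904 after PNPi+dG/rG+polyU, and 309.7 and 313.9 in R848, with Mki67 the most abundant gene. The summed level of the 9 deoxynucleotide enzymes was 546.2 and 498.3 CPM in vehicle, 306.1 and 309.4 after PNPi+dG/rG+polyU, and 55.4 and 55.4 in R848. Of 6 fibroblast markers, 5 passed the filter, all but Pdgfrb through the R848 libraries alone, so no count of rises is given. The 6 summed to 138.1 and 147.4 CPM in R848, 3.75 and 5.14 in PNPi+dG/rG+polyU, and at most 1.26 in the other libraries. Col1a1 was the most abundant, at 51.6 and 58.3 CPM in R848, with Col1a2 at 40.9 and 40.2 and Pdgfrb at 36.8 and 39.1, while Lum was at most 0.141 CPM in any library. The 8 macrophage markers summed to 17301 and 17773 CPM in vehicle, 15210.5 and 15196 after PNPi+dG/rG+polyU, and 15943 and 16352 in R848, with Lyz2 the most abundant. Of the 8, 2 rose and 5 fell with R848, beside 19.2% and 62.9% of all tested genes, with values from -2.87 for Mertk to 2.69 for Cd14. The part of the fibroblast markers and of the proliferation genes in the decreases was not tested. T cell markers summed to at most 0.112 CPM, B cell markers to at most 0.337, dendritic cell markers to at most 0.779 and erythroid markers to at most 0.142. Cd3d, Cd3e and Ly6g were listed at 0 throughout. Neutrophil markers summed to 1.74 and 2.02 CPM in vehicle and 5.45 and 3.87 in PNPi+dG/rG+polyU. In R848 they summed to 21.0 and 23.4 CPM, of which S100a8 made up nearly the whole. The only neutrophil marker tested was called higher with R848 (3.64) and with PNPi+dG/rG+polyU (1.34), and its part in the decreases was not tested.

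**Figure D3:**
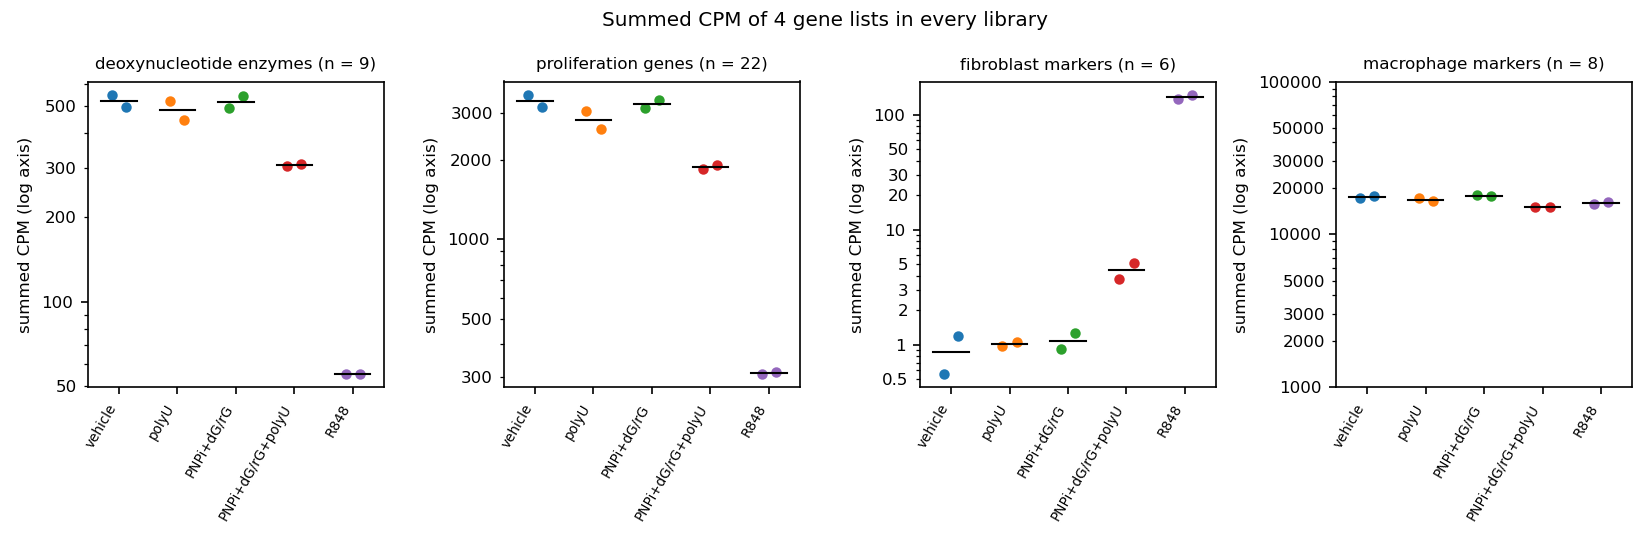
Summed CPM of the 9 deoxynucleotide enzymes, 22 proliferation genes, 6 fibroblast markers and 8 macrophage markers in each library (log axes; points, 2 libraries in each of 5 groups; bars, their mean). R848 libraries hold 55.4 CPM of the deoxynucleotide enzymes and over 138 CPM of the fibroblast markers.

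Upp1, the uridine phosphorylase that releases uracil from uridine, went the other way. It was at 0.954 and 1.18 CPM in vehicle, 1.70 and 1.16 in polyU, 1.07 and 0.963 in PNPi+dG/rG, 4.32 and 5.70 in PNPi+dG/rG+polyU, and 49.4 and 50.2 in R848. The R848 libraries stood far above all others, PNPi+dG/rG+polyU was next, and the vehicle libraries overlapped those of polyU and of PNPi+dG/rG. Upp1 changed by 5.55 ± 0.23 (SE, adjusted p = 2.44e-12) with R848, a 46.9-fold increase, and by 2.22 ± 0.23 (SE, adjusted p = 3.94e-07) with PNPi+dG/rG+polyU. The vehicle values rested on 17 and 21 reads. Centring moved all R848 estimates against vehicle up alike (members' median from -1.35 to -0.76), so the Upp1 increase was larger after centring. The interaction of Upp1 was 1.88 ± 0.33 (SE, adjusted p = 0.000214), and 1.34 with a pseudocount of 1.

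Ada, the adenosine deaminase, was at 3.54 and 3.65 CPM in vehicle, 5.91 and 5.40 in polyU, 4.66 and 4.38 in PNPi+dG/rG, 5.80 and 4.57 in PNPi+dG/rG+polyU, and 0.956 and 1.10 in R848. Aprt, which salvages adenine, was at 142 and 157 CPM in vehicle, 156 and 164 in polyU, 163 and 149 in PNPi+dG/rG, 116 and 104 in PNPi+dG/rG+polyU, and 61.8 and 68.3 in R848. Ada was low in R848 alone, whereas Aprt was low in PNPi+dG/rG+polyU and lower in R848. Ada changed by -1.81 ± 0.20 (SE, adjusted p = 3.9e-07) with R848. Its increase with PNPi+dG/rG+polyU, 0.52 ± 0.20 (SE, adjusted p = 0.0278), was lost without either vehicle library or without PNPi+dG/rG+polyU replicate 1 (adjusted p between 0.0665 and 0.197). Aprt changed by -1.20 ± 0.07 (SE, adjusted p = 1.03e-09) with R848. Adk, which phosphorylates adenosine, ranged from 18.0 to 46.1 CPM and changed by -0.92 ± 0.11 (SE, adjusted p = 2.44e-06) with R848. Cda, the cytidine deaminase, lay below the filter in every library, at 0.0612 to 0.729 CPM, and was not tested.

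The AMP deaminases, which convert AMP to IMP, went in opposite directions. Ampd3 was at 104 and 107 CPM in vehicle, 157 and 163 in polyU, 106 and 103 in PNPi+dG/rG, 372 and 366 in PNPi+dG/rG+polyU, and 388 and 398 in R848. Ampd2 was at 71.7 and 76.1 CPM in vehicle, 69.0 and 67.2 in polyU, 71.9 and 67.5 in PNPi+dG/rG, 35.2 and 36.2 in PNPi+dG/rG+polyU, and 32.7 and 37.3 in R848. In PNPi+dG/rG+polyU and R848, Ampd3 was high and Ampd2 low, neither gene overlapping vehicle in either group. Ampd3 rose by 0.60 ± 0.04 (SE, adjusted p = 4.25e-08) with polyU, 1.80 ± 0.04 (SE, adjusted p = 7.41e-15) with PNPi+dG/rG+polyU and 1.90 ± 0.04 (SE, adjusted p = 1.71e-15) with R848. Between the latter it differed by -0.09 ± 0.04 (SE, adjusted p = 0.0736), with a 95% confidence interval of -0.19 to 0.00, and after centring this was -0.47 (adjusted p = 1.41e-07). Ampd2 changed by -1.05 ± 0.07 (SE, adjusted p = 1.75e-09) with PNPi+dG/rG+polyU and -1.08 ± 0.07 (SE, adjusted p = 6.45e-10) with R848. Per kb of exon, Ampd3 stood at 1.33 times Ampd2 in vehicle, 9.59 times in PNPi+dG/rG+polyU and 10.5 times in R848.

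Guk1 and Nme1, which phosphorylate GMP and nucleoside diphosphates, ranged from 6.77 to 15.9 CPM and from 15.3 to 32.8 CPM. With R848, Guk1 changed by -0.98 ± 0.13 (SE, adjusted p = 3.17e-06) and Nme1 by -0.85 ± 0.09 (SE, adjusted p = 1.92e-07). Nme2 was listed at 0.425 to 0.991 CPM, below the filter, and 47% of its 50-base stretches also lie in Gm20390, so its true level is uncertain. Nme1 shares 11.1% of its stretches with the same gene. Gapdh, which is outside the set, was listed at 9.93 to 25.6 CPM with 25.1% of its stretches shared, and the rule for reads on several genes was not stated, so levels and per-kb ratios of members with shared sequence are uncertain.

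Nt5c3, a nucleotidase that acts on pyrimidine monophosphates, was at 22.7 and 19.4 CPM in vehicle, 42.0 and 43.6 in polyU, 21.1 and 22.1 in PNPi+dG/rG, 83.7 and 82.2 in PNPi+dG/rG+polyU, and 29.1 and 29.1 in R848. Nt5c2, a nucleotidase that prefers IMP and GMP, was at 68.8 and 71.7 CPM in vehicle, 57.5 and 58.1 in polyU, 69.3 and 66.1 in PNPi+dG/rG, 33.8 and 37.9 in PNPi+dG/rG+polyU, and 16.9 and 19.4 in R848. In CPM, Nt5c3 was highest in PNPi+dG/rG+polyU and next highest in polyU, and Nt5c2 was low in PNPi+dG/rG+polyU and lowest in R848. After centring, Nt5c3 rose at least 2-fold with R848 but under 2-fold with polyU, so the order of these groups depended on the scaling. Nt5c3 rose by 1.03 ± 0.08 (SE, adjusted p = 6.39e-08) with polyU, 1.98 ± 0.08 (SE, adjusted p = 2.59e-12) with PNPi+dG/rG+polyU and 0.47 ± 0.08 (SE, adjusted p = 4.57e-05) with R848. PNPi+dG/rG+polyU stood 1.51 ± 0.08 (SE, adjusted p = 1.35e-10) above R848. Nt5c2 changed by -0.97 ± 0.08 (SE, adjusted p = 1.47e-08) with PNPi+dG/rG+polyU and -1.96 ± 0.08 (SE, adjusted p = 1.16e-12) with R848.

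Of 55 other genes of nucleotide metabolism, 48 were tested. With R848, 9 rose and 35 fell, beside 19.2% and 62.9% of all tested genes, and with PNPi+dG/rG+polyU, 12 rose and 23 fell, beside 22.2% and 46.7%. With polyU, 15 rose and 6 fell, beside 20.6% and 18.7%, and with PNPi+dG/rG limma called 0 and 6 had an unadjusted p under 0.05. PNPi+dG/rG+polyU was higher than R848 for 33 and lower for 3, beside 53.9% and 16.9%. With R848, 4 rose and 16 fell at least 2-fold, beside 8.89% and 30.3% of all tested genes, so these counts are near the background. The rises were Ak4, an adenylate kinase (5.24), Slc28a2, a nucleoside transporter (2.41), Gda, guanine deaminase (1.67), and Pnp, the target of ulodesine (1.47). The decreases included Shmt1 (-3.95), Gmpr (-3.78), Slc29a2 (-2.24), Slc29a3 (-2.08), Adssl1 (-1.90), Nudt1 (-1.82), Shmt2 (-1.64), Mthfd1 (-1.52), Nme4 (-1.45), Uprt (-1.40), Nme7 (-1.31), Dck (-1.20), Adal (-1.15), Impdh2 (-1.12) and Aldh1l2 (-1.07). With PNPi+dG/rG+polyU, the genes that rose at least 2-fold included Cmpk2 (3.76), Slc28a2 (2.70), Ak4 (1.66), Pnp (1.53) and Mthfs (1.23). Slc29a2 (-1.98), Slc29a3 (-1.33), Gmpr (-1.28), Uprt (-1.18) and Uck2 (-1.08) fell at least 2-fold. With polyU the 2-fold rises included Cmpk2 (2.92). The named decreases with R848, and the named rises with PNPi+dG/rG+polyU and with polyU, are partial lists. The largest decrease with R848 is not among the genes named.

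Among 10 transcription factors, 9 were tested, of which 3 rose and 5 fell with PNPi+dG/rG+polyU, beside 22.2% and 46.7%, and 2 rose and 5 fell with R848, beside 19.2% and 62.9%. E2f1 and E2f2 are also among the proliferation genes. Myc, a textbook regulator of nucleotide enzymes, was at 114 and 117 CPM in vehicle, 83.4 and 71.3 in polyU, 107 and 105 in PNPi+dG/rG, 18.3 and 18.9 in PNPi+dG/rG+polyU, and 14.9 and 14.8 in R848. Its PNPi+dG/rG+polyU and R848 libraries were low. Myc changed by -2.63 ± 0.07 (SE, adjusted p = 2.62e-14) and -2.96 ± 0.07 (SE, adjusted p = 2.81e-15) in that order. Atf4, which activates amino acid and folate genes, was not called in any comparison against vehicle, with estimates of -0.03, 0.10, -0.06 and -0.01 in the order of the groups.

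Promoter windows were taken from RefSeq (GRCm38.p6), 250 bases before to 50 after the gene start, for 32 of 35 members, and those of Pfas, Dhodh and Rrm2b were not in the table. The E-box CACGTG, on both strands, lay in 5 of 32 member windows, beside 7.66% of all 20591 windows, and these were Atic, Dtymk, Nme1, Paics and Tyms. CCAAT lay in 11 of 32, beside 38.2%. AAANNGAAA, a core of the interferon response element, lay in 3 of 32, beside 10.2%, and GGANTTTCC, a form of the NF-kB motif, lay in Ampd3, beside 1.26%. The E2F forms TTTGGCGC and TTTCGCGC lay in 0 of 32, beside 0.631% and 0.345%. Among the 9218 windows of tested genes the shares were 10.5% for CACGTG, 39.2% for CCAAT, 8.23% for AAANNGAAA, 1.32% for GGANTTTCC, 1.04% for TTTGGCGC and 0.651% for TTTCGCGC. The start used lay 22046 bases from the GENCODE start for Nt5c3, 1225 for Ampd2, 416 for Ampd3, 325 for Dut, 322 for Ctps2, 260 for Guk1 and 249 for Nme1, so the matches of Ampd3, Guk1 and Nme1 are to windows at another start. A match is a description of letters. The windows below are shown for the largest decrease, its partner subunit, and the largest increase, with CCAAT or AAANNGAAA in capitals. They are the 250 bases before the start, on the plus strand, at chr12:24708004-24708253 for Rrm2, chr7:102441445-102441694 for Rrm1 and chr11:9117853-9118102 for Upp1. The last 13 bases of the Rrm2 window lie inside its GENCODE gene model.
Rrm2: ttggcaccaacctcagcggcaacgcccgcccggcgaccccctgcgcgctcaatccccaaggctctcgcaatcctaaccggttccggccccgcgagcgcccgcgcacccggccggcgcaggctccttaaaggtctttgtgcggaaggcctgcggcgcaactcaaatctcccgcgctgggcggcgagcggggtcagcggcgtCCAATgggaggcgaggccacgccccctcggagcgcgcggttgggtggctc
Rrm1: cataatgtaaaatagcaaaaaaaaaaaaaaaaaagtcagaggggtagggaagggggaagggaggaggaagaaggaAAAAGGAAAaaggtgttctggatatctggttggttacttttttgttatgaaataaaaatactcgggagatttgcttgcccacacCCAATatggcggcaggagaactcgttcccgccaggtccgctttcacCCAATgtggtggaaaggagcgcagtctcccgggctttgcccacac
Upp1: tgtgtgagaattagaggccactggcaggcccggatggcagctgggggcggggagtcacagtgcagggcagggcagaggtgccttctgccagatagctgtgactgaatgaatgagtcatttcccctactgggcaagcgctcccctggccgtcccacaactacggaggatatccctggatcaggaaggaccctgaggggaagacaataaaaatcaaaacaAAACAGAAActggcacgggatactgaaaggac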

How the data were processed

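RNA-Seq libraries were made with a stranded mRNA kit. According to the study's methods, reads were aligned with STAR 2.27a and counted on genes of GRCm38, and the authors deposited CPM with 0.0001 added to every value. The step of 1 read was found from the low values of each library, which gave its reads on genes, and read numbers are estimates from this step. Values were analysed as log2 of the deposited CPM with limma 3.58.1 (R 4.3.3; trend and robust), over all 10 libraries in 5 groups, after keeping genes at 1 CPM or more in at least 2 libraries. Benjamini-Hochberg adjustment ran over all 11978 tested genes within each comparison. Fold changes are on the log2 scale of the deposited values. Symbols were found for 55394 of 55573 identifiers. Gene positions and exon lengths came from the GENCODE annotation of GRCm38, and shared sequence was counted over its transcripts. The members and lists were chosen with earlier results of these data known. Values in every library are given for members called and at least 2-fold changed in any of the 7 comparisons, and for Ppat, Cad and Gmps whatever their values, of which Gmps alone had no such change. Samples were grouped by their labels. Alternatives were other pseudocounts and filters, centring, plain eBayes, a replicate block, fits on the groups compared, and leaving out each library. Between the 2 libraries of a group, 15.8% to 26.3% of genes with at least 50 reads differed past the 5% level of counting error by chi-square on these estimates.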

Additional observations from a re-analysis of the deposited data

Results flagged for a closer look

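For 6 members the change after adding PNPi+dG/rG to polyU differed from the change after adding it to vehicle by at least 1 on the log2 scale, tested as an interaction in limma. Of the 33 tested members, 2 were higher and 4 lower in this way, beside 4.55% and 8.87% of all tested genes. The interaction was -1.07 ± 0.17 (SE, adjusted p = 7.3e-05) for Dhodh, -1.15 ± 0.13 (SE, adjusted p = 3.35e-06) for Umps, -1.73 ± 0.40 (SE, adjusted p = 0.00201) for Dctd and -1.14 ± 0.23 (SE, adjusted p = 0.00134) for Tk1. It was 1.88 ± 0.33 (SE, adjusted p = 0.000214) for Upp1 and 1.22 ± 0.06 (SE, adjusted p = 3.36e-10) for Ampd3. Without polyU, the estimates for PNPi+dG/rG were 0.09, -0.15, -0.05, 0.13, -0.07 and -0.01, in the order given, with none called by limma. With polyU, they were -0.98, -1.30, -1.78, -1.01, 1.82 and 1.21. The median interaction of all tested genes was -0.27, and after centring the interactions were -0.79 for Dhodh, -0.86 for Umps, -1.45 for Dctd, -0.85 for Tk1, 2.17 for Upp1 and 1.5 for Ampd3. Without polyU replicate 1, Dhodh was at -0.95 and Tk1 at -0.99. In each of these cases the adjusted p stayed under 0.05.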

How the results depend on the processing

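Each of 231 gene and comparison pairs was recomputed under 19 alternatives. Of the resulting values, 4202 kept direction and side of the threshold, 101 lost the call, and 28 gained it. Another 49, called neither before nor after, changed sign, 12 of them by centring each library on its median and the others by leaving out a library. In 9 more, the sign changed and a call was involved, each time by centring. They were the interactions of Paics (0.0554) and Ctps2 (0.00546), PNPi+dG/rG+polyU against R848 for Adsl (-0.19), Atic (-0.00823), Cad (-0.19), Tk2 (-0.13) and Ampd2 (-0.35), and PNPi+dG/rG+polyU against polyU for Gmps (0.0277) and Nme1 (0.0105). Centring subtracts each library's own median, which differed between groups. It also moved the members lower in PNPi+dG/rG+polyU than in R848 from 1 to 6, and those with a lower interaction from 25 to 16. Without the filter, 25920 genes were tested and 3 members rose with polyU, beside 8.23% of the genes tested. The polyU estimates of Dhodh (0.34) and Ctps2 (0.16) were unchanged, but limma no longer called them (adjusted p = 0.0661 and 0.0982). The cause was not tested.

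Leaving out each library in turn gave 2 to 6 members higher and 2 to 9 lower with polyU, 3 to 4 higher and 23 to 24 lower with PNPi+dG/rG+polyU, 3 higher and 29 lower with R848 in every case, and 0 with PNPi+dG/rG. It gave 24 to 28 lower for PNPi+dG/rG+polyU against polyU, 26 to 29 higher against R848, and 23 to 26 with a lower interaction. A group left with 1 library was assumed to vary like the others. The share of all tested genes called also moved with the library left out and is not given beside these counts. These ranges alone therefore do not set the members apart from other genes. Replicate numbers were shared by label alone, and over 10 pairs of groups the correlation of deviations ran from -0.29 to 0.11. With the replicate block, 24 members had a lower interaction, Adk losing its call (adjusted p = 0.0513), and 0 other calls changed. Crossing the PNPi+dG/rG numbers, chosen after seeing the data, gave 2 members lower in PNPi+dG/rG+polyU than in R848. Tests made for read counts (edgeR, DESeq2) were not run, since the deposited unit is CPM with an offset, and the read numbers given are estimates from the step of 1 read. Depth limited the lowest values, such as the estimated 7 and 6 reads of Dctd in R848.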
